A study of Homo sapiens with 6 samples.

Results

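EGR1, EGR2, EGR3, NR4A1, NR4A2, NR4A3, IER2, IER3, IER5 and MYC are immediate early genes, and they were taken by gene symbol from the deposited RNA-seq table. All 10 symbols were among the 19475 in the table. The cells were MH7A, an immortalised line of synovial fibroblasts from a joint with rheumatoid arthritis. All cells received TNFα (10 ng/ml), the cytokine that drives joint inflammation, and 6 libraries were made. The TNF group (replicates 2, 8 and 14) had TNFα alone, and the LED group (replicates 4, 6 and 10) had TNFα and red light of 630 nm for 15 min, 3 times. The time between the light and RNA extraction is not given in the labels, and neither unexposed cells without TNFα nor sham-exposed cells are among these libraries.

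Immediate early genes are transcribed within minutes of a stimulus, without new protein synthesis, from factors already present in the cell such as SRF with its ELK partners, CREB and NF-kB. Their transcripts are short-lived, so a level depends on when the cells were collected. The EGR genes encode zinc finger transcription factors, the NR4A genes encode orphan nuclear receptors, the IER genes encode small regulators of growth and stress responses, and MYC encodes a factor that drives ribosome production and cell growth. In synovial fibroblasts several of them respond to cytokines and growth factors.

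Of the 6 EGR and NR4A genes, NR4A1 and EGR3 passed the test as higher with light. The other 4 had log2 fold changes of 1.31 to 2.77 that did not pass. Those of IER2, IER3 and MYC lay between -0.15 and 0.33. The groups overlapped for IER2, IER3 and MYC, and also for EGR1 and IER5. NR4A1 rose 3.31-fold, from 5.28 ± 1.69 to 17.5 ± 6.66 CPM (SD, n = 3 each). CPM is the estimated count scaled to a common library size of 1000000, after each library size was multiplied by its TMM scaling factor from edgeR. EGR3 was called higher from a level below the detection floor, but it entered the test only through its level in the LED group, and its call was lost when any single library was omitted. EGR1 was raised in LED replicates 4 and 6 but not in LED replicate 10, EGR2 was highest in LED replicate 4, and IER5 was far higher in LED replicate 4 than in any other library.

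Of the 10 genes, all of which were tested, 2 rose (NR4A1, and EGR3 with the limit just given), none fell and 8 did not pass edgeR's quasi-likelihood test at an adjusted p below 0.05 over 13794 genes. Over all genes tested, 5.17% were called, 2.44% higher and 2.73% lower. The log2 fold change was above 1 for 6 of the 10, the EGR and NR4A genes, as it was for 6.61% of all genes. It was above 0 for 9 of the 10, against 50.8% of all genes. The median of the 10 was 1.52, and the median of all genes tested was 0.01. DESeq2 called all 6 EGR and NR4A genes higher, in a comparison in which it called 1753 genes where edgeR called 713. Omitting TNF replicate 14, or LED replicate 4, or LED replicate 6 left no gene of the 10 called, and left 113, 116 and 80 calls over all genes.

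The stretch just upstream of the gene start is shown for EGR1, EGR2 and IER5, because short motifs bound by SRF, CREB or heat shock factors occur there and the stretch overlaps no annotated exon. The sequences are the 250 bases before the RefSeq start on GRCh38.p14, which need not be the build used for the deposited counts. Capitals mark matches on either strand to the CArG box (the element bound by SRF), to TGACG (the core of the element bound by CREB) and to GAANNTTC or TTCNNGAA (a pair of the units bound by heat shock factors). EGR1 lies at chr5:138465229-138465478 on the plus strand, EGR2 at chr10:62816367-62816616 on the minus strand and IER5 at chr1:181088450-181088699 on the plus strand.
EGR1: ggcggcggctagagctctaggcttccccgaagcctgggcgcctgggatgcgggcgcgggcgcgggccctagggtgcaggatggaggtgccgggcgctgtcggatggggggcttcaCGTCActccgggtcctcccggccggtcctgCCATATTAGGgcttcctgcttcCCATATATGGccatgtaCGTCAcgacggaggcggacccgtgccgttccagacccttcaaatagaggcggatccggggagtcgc
EGR2: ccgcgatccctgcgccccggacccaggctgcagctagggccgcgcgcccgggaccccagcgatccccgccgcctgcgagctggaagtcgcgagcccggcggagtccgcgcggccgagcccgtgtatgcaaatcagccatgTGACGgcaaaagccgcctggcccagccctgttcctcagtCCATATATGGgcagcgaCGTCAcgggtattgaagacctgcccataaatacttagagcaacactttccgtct
IER5: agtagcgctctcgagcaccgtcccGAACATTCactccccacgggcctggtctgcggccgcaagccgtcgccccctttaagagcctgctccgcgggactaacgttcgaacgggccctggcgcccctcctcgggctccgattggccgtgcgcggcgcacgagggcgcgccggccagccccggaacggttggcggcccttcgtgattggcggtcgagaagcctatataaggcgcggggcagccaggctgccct
EGR1 held 2 CArG boxes, CCATATTAGG and CCATATATGG, and 2 matches to TGACG, read as CGTCA on the strand shown. EGR2 held 1 CArG box, CCATATATGG, and 2 matches to TGACG. IER5 held GAACATTC, with its first base at position -226 from the start. No match overlapped one of another motif. Across 35116 windows of the same length, 1.16% held a CArG box, 21.2% held TGACG and 11.6% held the heat shock pair. RefSeq windows were at hand for 6 of the 10 genes, EGR1, EGR2, NR4A1, NR4A3, IER2 and IER5, in 9 windows in all, since EGR2 and NR4A1 have several starts. Among the windows not printed, those of NR4A3 and IER2 overlap annotated exons. That of NR4A3 held 4 matches to TGACG, that of IER2 held 1, and those of both NR4A1 starts and of the other EGR2 starts held none of the 3 motifs. These are descriptions of letters, and binding was not measured.

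EGR1, a zinc finger factor induced by mitogens and many stresses, had 12.9, 8.63 and 7.26 CPM in TNF replicates 2, 8 and 14. In LED replicates 4, 6 and 10 it had 82.9, 61.2 and 9.67 CPM. LED replicates 4 and 6 were far above every TNF library, while LED replicate 10 lay inside the TNF range, so the groups overlapped. The log2 fold change was 2.41 ± 0.62 (SE; 95% interval 1.02 to 3.81; edgeR adjusted p = 0.0569). Set against the TNF mean, LED replicate 4 was 8.63 times as high, LED replicate 6 was 6.37 times and LED replicate 10 was 1.01 times. In bulk RNA, a higher share of cells expressing the gene and more transcript per cell cannot be told apart. EGR1 passed in 3 of 13 alternatives. These were DESeq2 (adjusted p = 0.0316), edgeR on counts divided by 4 (0.0489), and edgeR without LED replicate 10 (log2 2.90, adjusted p = 0.00181). That omission removed the LED library in which EGR1 was not raised, so its pass follows from that value and adds no support. EGR1 did not pass with limma-voom (0.142) or with edgeR without the filter on low counts (0.113).

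EGR2, a relative of EGR1 known for its role in myelination and lymphocyte tolerance, was near the lower end of detection with TNFα alone. Its CPM was 0.412, 0.197 and 0.692 in TNF replicates 2, 8 and 14, against 6.51, 1.37 and 0.954 in LED replicates 4, 6 and 10. Every LED library was above every TNF library, and LED replicate 4 was well above the other 2. Its fitted log2 fold change was 2.77 ± 0.76 (SE; 95% interval 1.05 to 4.48; edgeR adjusted p = 0.0693). It was 1.44 without LED replicate 4.

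EGR3, which acts with EGR2 in lymphocytes and in muscle spindle development, had 0.0359, 0.0394 and 0 CPM in TNF replicates 2, 8 and 14. It had 0.462, 0.348 and 0.456 CPM in LED replicates 4, 6 and 10, so that the 3 LED libraries were close together and apart from the TNF libraries. All TNF values were under the limit that a count of 0 allows (3 fragments, or 0.108 to 0.138 CPM in the TNF libraries). Since a fragment was worth about 4 deposited units, the evidence came to about 32 fragments with light against 2 without, a ratio of 15.8 (exact 95% interval 4.04 to 136, which covers counting error only). The fitted log2 fold change of 3.96 ± 0.91 passed edgeR's test (adjusted p = 0.0418) but depends on how the fit treats such low counts. EGR3 entered the test only through its level in the LED group, and its call was lost in each of the 6 single-library omissions (adjusted p 0.0734 to 0.143) and without the filter on low counts (0.0639).

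**Figure D1:**
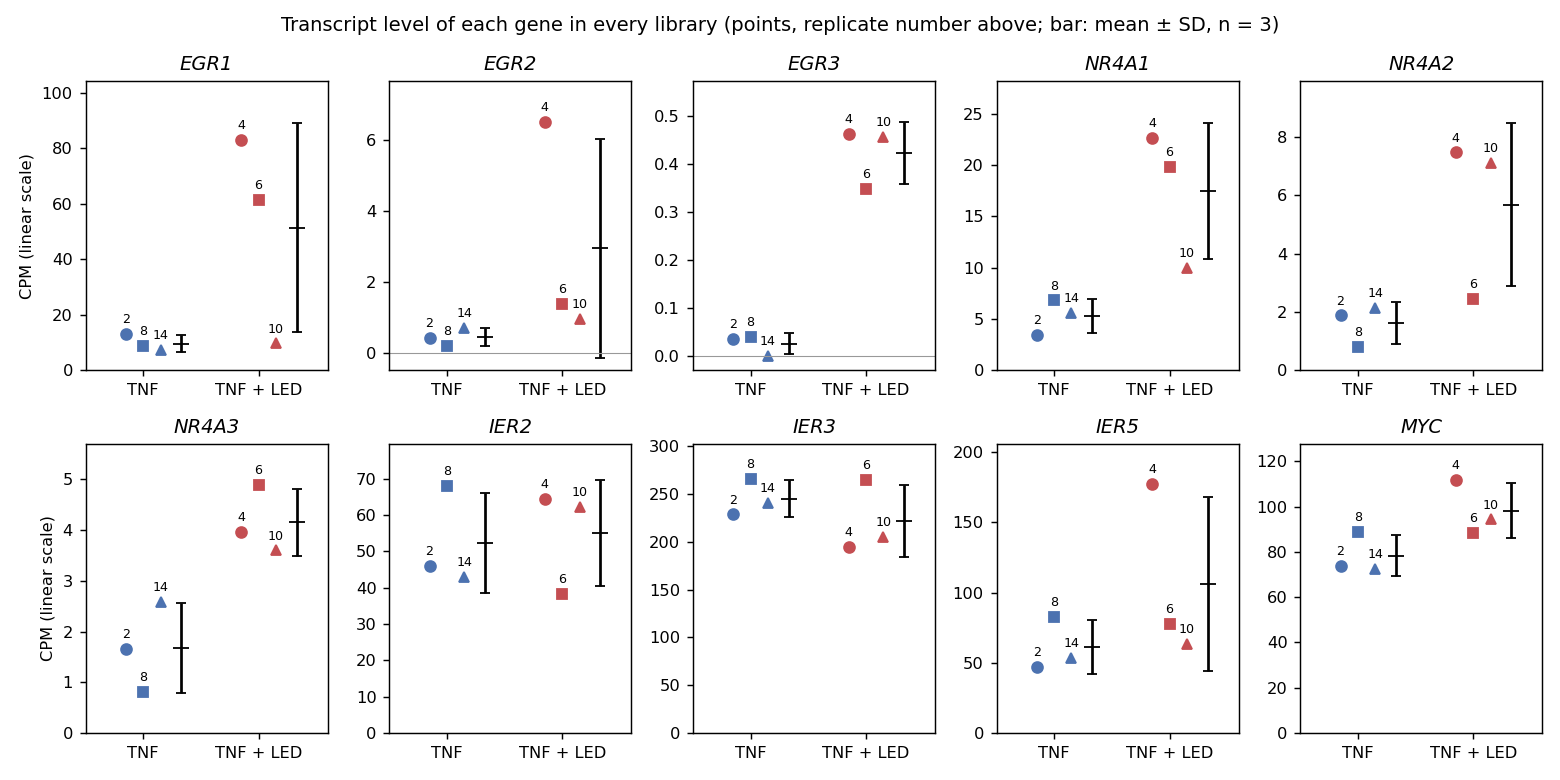
Level of each of the 10 genes in CPM on a linear scale, with one point per library, the replicate number above it, and the mean ± SD of 3 libraries beside each group. EGR1 is high in LED replicates 4 and 6 and at 9.67 CPM in LED replicate 10, and EGR2 and IER5 are highest in LED replicate 4. EGR1, IER2, IER3, IER5 and MYC overlap between the groups.

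The corepressor NAB2, which binds EGR proteins and is itself a known EGR target, rose from 40.5 ± 7.0 to 96.5 ± 21.6 CPM (log2 1.25 ± 0.22 SE, n = 3 each, edgeR adjusted p = 0.0193). Single TNF libraries (2, 8, 14) held 38.7, 48.2 and 34.5 CPM, and single LED libraries (4, 6, 10) held 76.1, 119 and 94.4 CPM. All 3 LED libraries were thus above the TNF libraries, LED replicate 10 included, in which EGR1 was not raised. The call of NAB2 was lost when TNF replicate 14, LED replicate 6 or LED replicate 10 was omitted (adjusted p up to 0.0817). NAB2 was the only one called of 5 tested genes in a list of NAB corepressors, retinoid X receptors and SP1. Over all genes tested, 2.44% were called higher. The median of the list was 0.39, the value of SP1, which is neither a NAB corepressor nor a retinoid X receptor. NAB1 had a log2 fold change of 0.46, with every LED library above every TNF library, and did not pass (edgeR adjusted p = 0.229). The retinoid X receptors RXRA and RXRB, which pair with NR4A1 and NR4A2, had log2 fold changes of -0.16 and -0.01 (these 2 were chosen after their values were seen).

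NR4A1 (also called Nur77), a nuclear receptor without a known natural ligand that limits inflammatory gene expression in several cell types, had 3.47, 6.80 and 5.58 CPM in TNF replicates 2, 8 and 14. It had 22.7, 19.8 and 9.96 CPM in LED replicates 4, 6 and 10. Every LED library was above every TNF library, with LED replicate 10 nearest to them. The log2 fold change was 1.73 ± 0.35 (SE; 95% interval 0.95 to 2.50; edgeR adjusted p = 0.0304). It stayed between 1.48 and 2.00 with any single library left out, and the call was lost on omitting TNF replicate 14 (adjusted p = 0.0889), LED replicate 4 (0.102) or LED replicate 6 (0.132).

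NR4A2 (Nurr1), which is known to be abundant in inflamed synovium and induced by prostaglandins and cytokines, had 1.88, 0.787 and 2.15 CPM in TNF replicates 2, 8 and 14. It had 7.47, 2.45 and 7.11 CPM in LED replicates 4, 6 and 10. The groups did not overlap, and the low LED library was replicate 6, not replicate 10 as for EGR1 and NR4A1. On the log2 scale the difference was 1.82 ± 0.48 (SE; 95% interval 0.73 to 2.91; edgeR adjusted p = 0.0619). NR4A2 passed in 2 of 13 alternatives, with DESeq2 (0.00185) and with edgeR without the filter on low counts (0.0486). It passed in 0 of the 6 single-library omissions (edgeR adjusted p 0.0815 to 0.182).

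NR4A3 (NOR1), the third receptor of the family, had 1.66, 0.807 and 2.58 CPM in TNF replicates 2, 8 and 14. It had 3.97, 4.89 and 3.60 CPM in LED replicates 4, 6 and 10. The 3 LED libraries were close together and above all TNF libraries, and the spread was in the TNF group, where the highest library was 3.20 times the lowest. On the log2 scale NR4A3 differed by 1.31 ± 0.39 (SE; 95% interval 0.42 to 2.19; edgeR adjusted p = 0.089). Of the 10 genes, EGR2, EGR3 and the 3 NR4A genes had groups that did not overlap, with the LED libraries higher. This pattern was found in 16.2% of all genes tested. For EGR3 it adds no support, since EGR3 entered the test only through its level in the LED group.

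**Figure D2:**
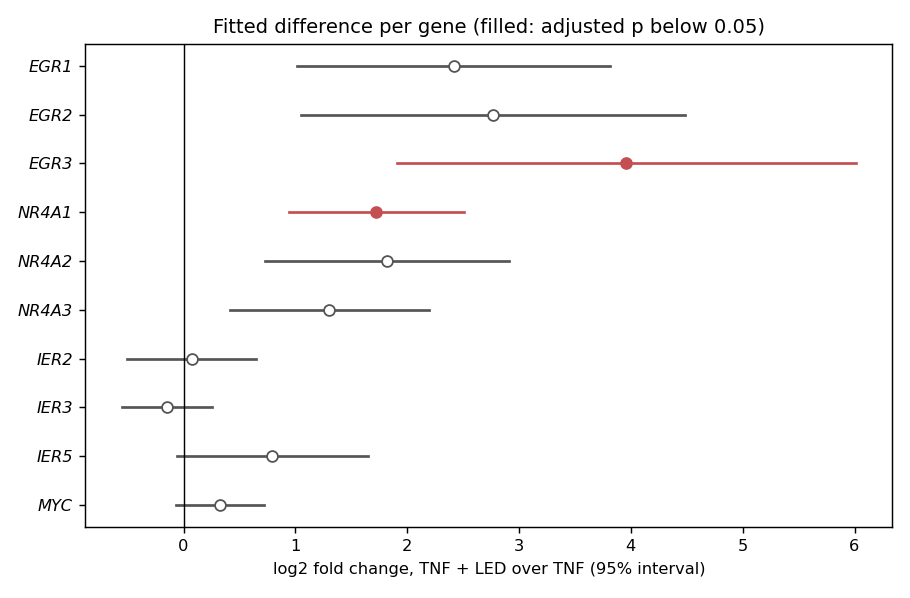
Fitted log2 fold change of TNF + LED over TNF for each of the 10 genes, with its 95% interval from edgeR. Points are filled where the adjusted p is below 0.05 (NR4A1 and EGR3), and the intervals of IER2, IER3, IER5 and MYC span 0.

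IER5, a regulator that is known to be a target of heat shock factor HSF1 and to act back on it, was at 47.2, 82.8 and 53.4 CPM in TNF replicates 2, 8 and 14. It had 177, 77.7 and 63.3 CPM in LED replicates 4, 6 and 10. LED replicate 4 was above all other libraries, and the other 2 LED libraries lay inside the TNF range. For IER5 the log2 fold change was 0.79 ± 0.38 (SE; 95% interval -0.06 to 1.65; edgeR adjusted p = 0.253), and it was 0.22 without LED replicate 4.

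IER2, a nuclear protein induced by serum, was at 45.9, 68.1 and 43.0 CPM in TNF replicates 2, 8 and 14, against 64.5, 38.2 and 62.2 CPM in LED replicates 4, 6 and 10. The highest TNF library was above all LED libraries and the lowest library of all was LED replicate 6. For IER2 the log2 fold change was 0.07 ± 0.26 (SE; 95% interval -0.50 to 0.65; edgeR adjusted p = 0.899).

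IER3, a survival factor and NF-kB target that is induced by TNFα, was at 229, 266 and 240.4 CPM in TNF replicates 2, 8 and 14, against 194, 265 and 205 CPM in LED replicates 4, 6 and 10. LED replicates 4 and 10 were below the TNF libraries and LED replicate 6 was among them. IER3 was the only gene of the 10 with a fold change below 0 (log2 -0.15 ± 0.18 SE; 95% interval -0.55 to 0.26; edgeR adjusted p = 0.679).

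MYC was at 73.9, 88.9 and 72.5 CPM in TNF replicates 2, 8 and 14, against 112, 88.4 and 94.4 CPM in LED replicates 4, 6 and 10. The groups overlapped by LED replicate 6, which was just below TNF replicate 8. The log2 fold change was 0.33 ± 0.17 (SE; 95% interval -0.07 to 0.72; edgeR adjusted p = 0.309).

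Neither the partners nor the targets of MYC held a called gene. Over all genes tested, 5.17% were called and 50.8% were above 0, so lists of this size would hold few calls in any case. Of 15 tested members of the MYC and MAX network, none passed (median 0.24). The 2 with the lowest p were MXD1, a repressor that competes with MYC for MAX (14.1 ± 5.53 to 32.0 ± 5.54 CPM, edgeR adjusted p = 0.0503), and AURKA, a mitotic kinase that stabilises N-MYC (60.6 ± 26.8 to 31.5 ± 1.07 CPM, edgeR adjusted p = 0.0847). Of 30 targets of MYC in nucleolar and growth metabolism, none passed either, 19 were above 0 and the median was 0.08. The lowest p among them belonged to NOP58, a nucleolar protein of ribosomal RNA processing (log2 0.94 ± 0.26 SE, edgeR adjusted p = 0.0735), and CAD, the enzyme that starts pyrimidine synthesis (log2 -0.54 ± 0.17 SE, edgeR adjusted p = 0.106).

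The level of each gene relative to the others was compared per kilobase of merged exons (GENCODE 29). With TNFα alone IER3 was the most abundant at 181 CPM per kilobase, followed by MYC at 26.1, IER2 at 17.0, IER5 at 14.6 and EGR1 at 3.06. Below them came NR4A1 at 1.30, NR4A2 at 0.425, NR4A3 at 0.267, EGR2 at 0.138 and EGR3 at 0.00564, the last under its detection floor. The ranges over the 3 TNF libraries overlapped between IER2 and IER5, between NR4A2 and NR4A3, and between NR4A3 and EGR2, but not between the other neighbours in this order. The genes with a log2 fold change above 1 were the 6 with the lowest levels per kilobase. The TNF level is also the denominator of the fold change, so no conclusion is drawn from this match.
With light, EGR1 averaged 16.3 CPM per kilobase with a range of 3.08 to 26.4, which took in the whole range of IER2 (12.4 to 21.0) and overlapped that of IER5 (15.1 to 42.3). EGR2, at 0.304 to 2.08 CPM per kilobase, then overlapped both NR4A2 (0.649 to 1.98) and NR4A3 (0.570 to 0.774). By mean level IER3 and MYC stayed at the top of the order and EGR3 at the bottom.

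The LED libraries were not alike for these genes. LED replicate 4 held the highest of the 3 LED values for 8 of the 10 genes, the exceptions being NR4A3 and IER3, and this library was the highest of the 3 for 24.4% of all genes tested. For EGR3, IER2 and NR4A2 it was only just above LED replicate 10 (0.462 against 0.456, 64.5 against 62.2 and 7.47 against 7.11 CPM). LED replicate 6 held the highest value for 40.8% of all genes and for 2 of the 10. LED replicate 10 held the lowest value for 5 of the 10 (EGR1, EGR2, NR4A1, NR4A3 and IER5), against 33.8% of all genes. Within the LED group the highest library was 8.58 times the lowest for EGR1, 6.82 times for EGR2, 3.04 times for NR4A2, 2.80 times for IER5 and 2.28 times for NR4A1, and at most 1.69 times for the other 5. A list of 20 heat shock factor targets, of which 19 rose and none fell, summed to 8582 to 8785 CPM in the TNF libraries and to 38877, 56916 and 27992 CPM in LED replicates 4, 6 and 10. LED replicate 10 was thus also the lowest LED library for that list, while its highest was replicate 6. The part of this response in the levels of the 10 genes was not tested.

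**Figure D3:**
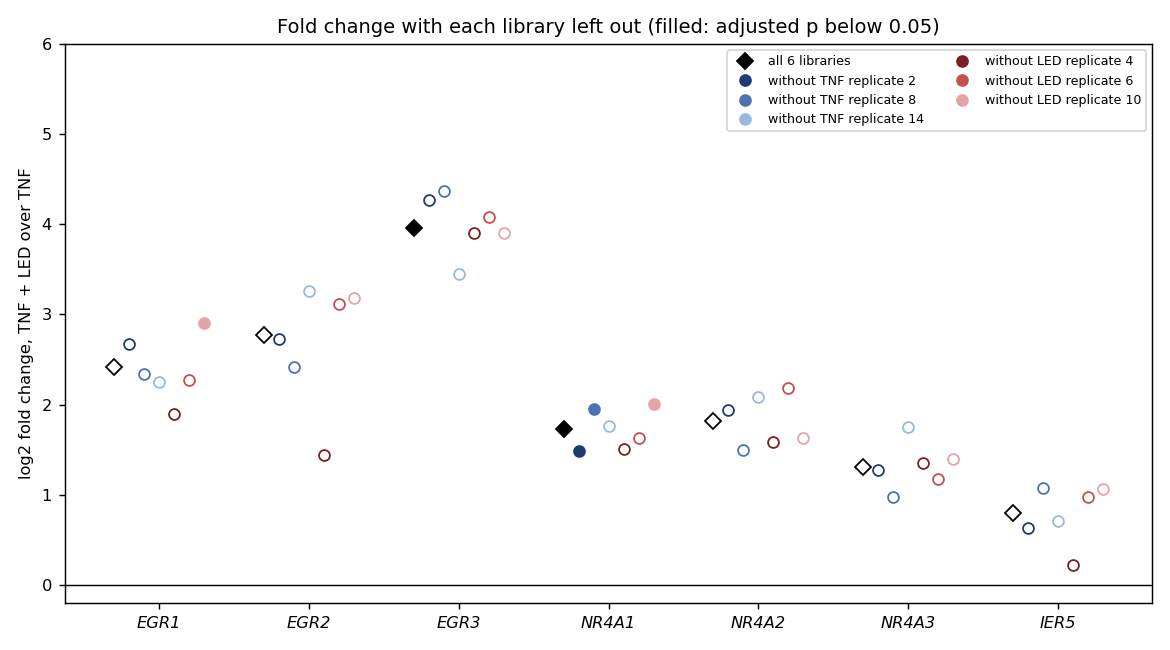
Log2 fold change of TNF + LED over TNF for the EGR and NR4A genes and IER5, in all 6 libraries (diamonds) and with each library left out in turn (circles), filled where the edgeR adjusted p is below 0.05. EGR2 and IER5 drop to 1.44 and 0.22 without LED replicate 4, EGR1 passes in 1 of these fits, that without LED replicate 10, and NR4A1 stays between 1.48 and 2.00.

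Other immediate early genes were counted in a list of 44 symbols, of which 43 were tested. In it 3 rose, 1 fell and 39 did not pass, where 2.44% of all genes tested were called higher and 2.73% lower. In the list 32 genes were above 0, against 50.8% of all genes, and the median log2 fold change was 0.33, against 0.01. SIK1, a salt-inducible kinase that is transcribed through CREB and restrains CREB coactivators, rose from 7.87 ± 2.12 to 47.7 ± 23.04 CPM (log2 2.60 ± 0.38 SE, n = 3 each, edgeR adjusted p = 0.0108). It had 50.7, 69.1 and 23.4 CPM in LED replicates 4, 6 and 10 and lost its call without LED replicate 6 (adjusted p = 0.0602). Human SIK1 has a near-identical copy, so the division of its counts is uncertain. IER5L, a paralogue of IER5, rose from 23.5 ± 5.58 to 57.0 ± 13.0 CPM (log2 1.28 ± 0.24 SE, edgeR adjusted p = 0.0259). Unlike IER5 it was above every TNF library in all 3 LED libraries (61.4, 42.4 and 67.3 CPM against 29.1, 23.6 and 17.9 in TNF replicates 2, 8 and 14), although its call held in only 1 of the 6 single-library omissions, that without TNF replicate 2.
PLK2, a kinase of the stress response, rose 1.83-fold (edgeR adjusted p = 0.0245), and CTGF, a secreted matricellular protein, fell 3.12-fold (edgeR adjusted p = 0.00461). CTGF kept its call in all 6 single-library omissions and PLK2 in 2.

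Several immediate early genes outside the 10 were highest in LED replicate 6, in contrast to EGR1, EGR2 and IER5. ARC, a synaptic immediate early gene, had 0.576, 21.1 and 0.249 CPM in LED replicates 4, 6 and 10 and 0.0807 to 0.231 CPM in the TNF libraries. ATF3, a stress-induced factor of the CREB family, had 5.98, 43.4 and 2.67 CPM in LED replicates 4, 6 and 10 and 3.47 to 4.91 CPM in the TNF libraries. FOSB, an AP-1 subunit, had 2.51, 11.1 and 1.47 CPM in LED replicates 4, 6 and 10 and 0.637 to 1.03 CPM in the TNF libraries. None of these 3 passed (edgeR adjusted p = 0.117, 0.219 and 0.0654), and they were chosen after their values were seen. LED replicate 6 held the highest LED value for 19 of the 43 listed genes (44.2%, near the 40.8% of all genes tested) and LED replicate 4 for 15 (34.9%, against 24.4% of all genes).

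**Figure D4:**
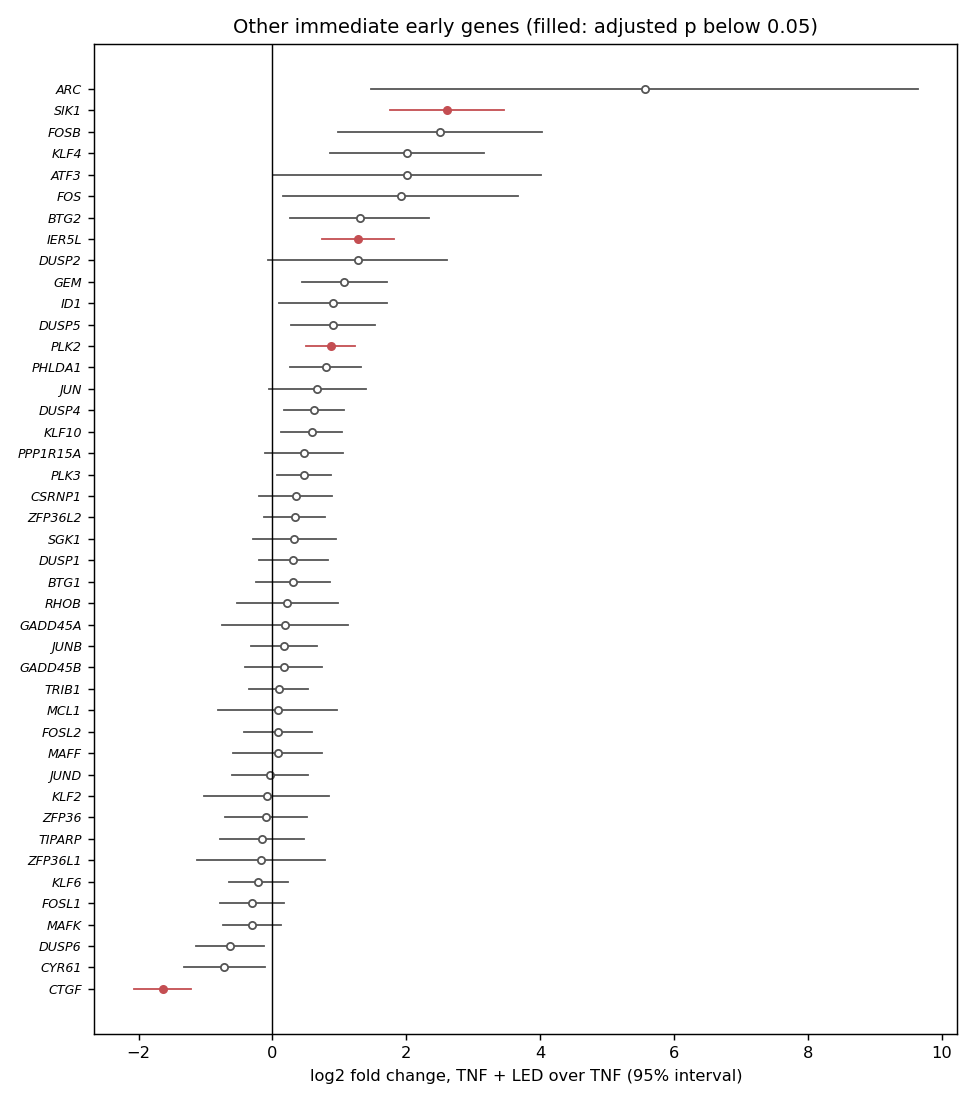
Log2 fold change of TNF + LED over TNF with its 95% interval for the 43 tested immediate early genes outside the 10, sorted by size and filled where the edgeR adjusted p is below 0.05. SIK1, IER5L and PLK2 are filled on the higher side and CTGF on the lower side, and the interval of ARC is the widest.

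A list of 32 tested SRF, ELK, CREB and MEF2 factors and MAP kinases, which act upstream of immediate early genes, had a median of -0.02. In it none rose, 1 fell and 31 did not pass. These counts are near the shares over all genes tested, of which 2.44% were called higher and 2.73% lower. The one that fell was RPS6KA1, the kinase RSK1 that ERK activates (4.47 ± 1.32 to 1.33 ± 0.210 CPM, log2 -1.75 ± 0.30 SE, edgeR adjusted p = 0.0172), and its call was lost on omission of TNF replicate 14, of LED replicate 4 or of LED replicate 6 (up to 0.0952). The kinases among them act through phosphorylation, which the assay does not measure.

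The genes with the most similar pattern over the 6 libraries were found by Pearson correlation of log2(CPM + 1) among 11889 genes, for the 3 of the 10 with the lowest p, as a description. Nearest to NR4A1 were AKAP8 (r = 0.988), ZNF384 (0.983) and MAP3K7CL (0.982), nearest to EGR3 were EEPD1 (0.997), PKNOX1 (0.996) and UBFD1 (0.995), and nearest to EGR1 were DNMT3A (0.992), BORCS8-MEF2B (0.977) and KCNE4 (0.975). With 6 libraries such values are common: 181, 326 and 49 genes had an r above 0.9 with NR4A1, EGR3 and EGR1. Those of EGR3 rest on few fragments, and its TNF values were all under the detection floor. None of these 9 genes passed the test of the LED libraries against the TNF libraries (edgeR adjusted p 0.0667 or higher).

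Deposited totals were 86000253 to 108074289 estimated counts per library, and 14079 to 14943 genes were above 0. Fibroblast markers differed widely in level, from COL1A1 at 8705 to 14262 CPM to PDPN at 20.6 to 39.7 CPM and S100A4 at 8.64 to 15.3 CPM. The lining marker PRG4 was at or near 0 (at most 0.0787 CPM). Of 8 monocyte and macrophage markers, 3 (AIF1, TYROBP and FCGR3A) were at 0 in every library and PTPRC was above 0 only in LED replicate 4 (0.132 CPM). The list summed to 93.4 to 139 CPM in the TNF libraries and 115 to 155 CPM in the LED libraries, nearly all of it CD68 (92.2 to 153 CPM), a lysosomal protein that is not confined to macrophages, with CSF1R at 0.511 to 1.82 CPM. Of 6 lymphocyte markers 5 were at 0 in every library, and the sixth, CD79A, was highest in LED replicates 4 and 6 (0.557 and 0.398 CPM). Endothelial markers summed to 4.15 to 10.4 CPM with TNF and 8.55 to 11.2 CPM with LED, and epithelial markers to 34.4 to 41.2 CPM and 37.2 to 55.9 CPM. Most of the endothelial sum was KDR (3.51 to 9.20 CPM), while PECAM1 was at most 0.117 CPM and CDH5 was at 0 in every library. Nearly all of the epithelial sum was KRT18 (28.4 to 46.2 CPM) and KRT8 (5.79 to 9.35 CPM). EPCAM was at most 0.0923 CPM, CDH1 at most 0.0394 CPM and KRT19 at most 0.318 CPM. The part of these markers in the levels of the 10 genes was not tested. In GENCODE 29 a gene on the opposite strand overlaps exons of EGR3, NR4A1, IER2 and IER3, and since it is not known whether counting used strand, a share of their counts may belong to those genes.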

How the data were processed

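RNA was sequenced from 6 samples of MH7A cells, 3 with TNFα and 3 with TNFα and LED light, after removal of ribosomal RNA and random priming, per the labels' protocols. The authors deposited estimated counts per gene symbol as whole numbers. The submitters' processing notes list, with no role for each, HISAT2, StringTie, limma, DESeq2 and bcl2fastq 2.0, and a mouse build, mm10, although the samples are human; the human build and the strandedness of counting are not given in the sources used here. Of deposited values between 1 and 7, 41.8% equalled 4, so a fragment appeared to be worth about 4 units and precision is that of about 21500063 to 27018572 fragments per library. Floors and intervals from counts cover counting error only.

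Estimated counts entered edgeR 4.0.16 in R 4.3.3 as deposited: filterByExpr, TMM scaling, robust quasi-likelihood test, no covariate, two-sided, Benjamini-Hochberg adjustment over all genes tested, threshold 0.05. Replicate numbers are not shared between the groups, so nothing was paired. Standard errors are the size of the log2 fold change divided by the root of F. Nothing in the labels states whether replicates were grown apart, and the p-values then reflect spread between samples that may be technical. Chi-square per degree of freedom between libraries of a group was 26.8 or more, so none was a copy of another. In the TNF group it was 27.0 between replicates 2 and 14, 131 between 2 and 8, and 97.5 between 8 and 14. In the LED group it was 26.8 between replicates 4 and 10, 73.6 between 4 and 6, and 110 between 6 and 10. TNF replicate 8 and LED replicate 6 thus lay furthest from the rest of their groups. TNF replicate 2 was nearer to LED replicate 10 (76.6) than to TNF replicate 8. In a test on simulated counts of 13794 genes, 54 of 100 genes with a log2 change of 1 and 92 of 100 with a log2 change of 2 were recovered, beside 10 false calls.

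The 10 genes and all lists were chosen with earlier results of these data known. Named genes were the 10, the called genes of lowest p in every list (at most 4, or 2 uncalled ones in a list with no call), and the 3 genes most like each of the 3 of the 10 with the lowest p. ARC, ATF3, FOSB, RXRA, RXRB, NAB1 and SP1 were named outside this rule, after their values were seen. The heat shock list is given by its counts and sums only, and the 4 genes its part of the rule names, BAG3, FKBP4, HSPH1 and HSPA4L, were all called higher. Alternatives were no filter, DESeq2 size factors, total counts, DESeq2 1.42.0, limma-voom (limma 3.58.1), other thresholds and each library left out. Added after seeing the data were counts divided by 4 and TMM without the heat shock list. Promoter windows and gene names came from RefSeq (GRCh38.p14), exon lengths and overlaps from GENCODE 29.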

Additional observations from a re-analysis of the deposited data

How the results depend on the processing

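Over all genes, the count of calls was 1753 with DESeq2, 1471 at an adjusted p below 0.1 and 70 below 0.01, against 713, and 80 to 737 with each library left out. Among the 10 genes the count was 6 with DESeq2 and at an adjusted p below 0.1, 0 below 0.01, and 0 to 2 with each library left out. It was 2 with limma-voom, other scalings, no filter, counts divided by 4 and TMM without the heat shock list. The pair was then not always the same: NR4A1 and NR4A2 with no filter and EGR1 and NR4A1 with counts divided by 4, where EGR3 did not reach the filter. With all 6 libraries, log2 fold changes that newly passed were those of EGR1 (2.43 with DESeq2, 2.42 with counts divided by 4), EGR2 (2.78 with DESeq2), NR4A2 (1.82 with no filter, 1.83 with DESeq2) and NR4A3 (1.32 with DESeq2). EGR1 also passed without LED replicate 10 (2.90), the LED library in which it was not raised, so that pass adds no support. The log2 fold change of EGR3 was 3.97 with no filter and did not pass. With each library left out, the log2 fold change was 1.90 to 2.90 for EGR1, 1.44 to 3.26 for EGR2, 3.45 to 4.36 for EGR3, 1.48 to 2.00 for NR4A1, 1.49 to 2.18 for NR4A2 and 0.97 to 1.75 for NR4A3. IER2 ranged from -0.05 to 0.31, and was below 0 without TNF replicate 2 (-0.03) or 14 (-0.052) or LED replicate 4 (-0.046) or 10 (-0.03). No other gene of the 10 changed direction under the alternatives run. Beyond what the numbers of libraries and genes tested imply, the causes were not tested. Depth limits EGR3, whose TNF values were all under the detection floor.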
